A study of Mus musculus with 21 samples.

Results

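Genes of the interferon-inducible GTPase and p200 families, 10 in all, were followed in mouse lung: the guanylate-binding protein genes Gbp2b, Gbp2 and Gbp3, the immunity-related GTPase genes Igtp, Ifi47 and Irgm1, and the p200 genes Mndal, Ifi202b, Ifi204 and Ifi203. All probe sets annotated to them were taken, 15 of the 22626 on the array that are not controls. Of the 15, 11 carried 1 gene symbol and covered 9 of the 12393 genes measured in that way, and 4 were shared between p200 genes. Ifi203 had only shared probe sets, so it has no level of its own here. A filter on dim probe sets left 13 of the 15 for testing, of 15084 in all; Ifi204 and 1 shared probe set were below it, and Ifi202b lay just above it.

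RNA of the whole right lung of 3 inbred strains was measured on 21 Affymetrix arrays, each holding the pooled RNA of 3 to 5 mice. Treated mice had received bleomycin, a DNA-breaking antitumour drug that injures the lung, by osmotic minipump, and the sources used here do not say what the controls received. The C3H/HeJ and A/J strains were each measured as controls, at 3 weeks and at 6 weeks, and C57BL/6 as controls, at 3 weeks, at 6 weeks and when moribund, at a time not given. Each group had 1 male and 1 female pool, at 100 mg/kg for males and 125 mg/kg for females where treated, with these exceptions: A/J at 3 weeks had 4 pools, a male one at 80 mg/kg and a female one at 100 mg/kg being added, and C57BL/6 at 6 weeks had 1 female pool. The labels name no mutation or transgene in any group, and C3H/HeJ mice are known for a natural mutation of Tlr4, the endotoxin receptor. The sources used here give no ages. Because a pool was measured once, the spread between arrays of a group is the spread between pools of different sex and, in treated mice, mostly different dose.

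Guanylate-binding proteins are large GTPases that gather on the vacuoles and membranes of intracellular pathogens and help to set off inflammasomes. Immunity-related GTPases act on the same vacuoles, and Irgm1 is a regulator that keeps the others off the cell's own membranes. Both families are among the most strongly induced targets of interferon gamma, and promoters of such targets often carry GAS or ISRE elements. The p200 proteins are DNA-binding proteins with a HIN domain, and Ifi204, Ifi203 and Mndal also have a pyrin domain. In the mouse, Ifi202b lacks the pyrin domain and restrains the DNA sensor Aim2. In the gene annotation these genes lie in clusters of relatives: Gbp5, Gbp7, Gbp3, Gbp2b and Gbp2 follow each other on chromosome 3, and Ifi204, Mndal, Ifi211, Ifi203, Ifi202b and Ifi205 on chromosome 1. Irgm1 and Ifi47 bound 1 cluster on chromosome 11, and Igtp lies next to Irgm2 in another.

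The promoters of the members were read to see which carry the 2 interferon elements. RefSeq sequences (GRCm38.p6, the C57BL/6J reference, 250 bases before to 50 after each start) were at hand for 9 of the 10 genes, in 12 promoters. Capitals mark matches on either strand to an ISRE core (GAAA, any 2 bases, GAAA) or a GAS element (TTC, any 3 bases, GAA); the 2 matches in Irgm1 overlap by 4 bases. Gbp2b, Gbp2, Ifi202b and Mndal are shown because the text describes strain differences for them, Igtp and Irgm1 for contrast, and Ifi203, which has no level of its own here, for its likeness to Mndal.
Gbp2b (chr3:142594597-142594896, strand plus): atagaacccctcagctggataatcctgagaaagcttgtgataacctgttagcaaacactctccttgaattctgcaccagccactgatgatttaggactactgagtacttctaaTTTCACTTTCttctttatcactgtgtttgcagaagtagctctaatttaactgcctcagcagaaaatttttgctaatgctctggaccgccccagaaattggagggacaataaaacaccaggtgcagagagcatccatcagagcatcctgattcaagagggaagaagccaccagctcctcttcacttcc
Gbp2 (chr3:142620413-142620712, strand plus): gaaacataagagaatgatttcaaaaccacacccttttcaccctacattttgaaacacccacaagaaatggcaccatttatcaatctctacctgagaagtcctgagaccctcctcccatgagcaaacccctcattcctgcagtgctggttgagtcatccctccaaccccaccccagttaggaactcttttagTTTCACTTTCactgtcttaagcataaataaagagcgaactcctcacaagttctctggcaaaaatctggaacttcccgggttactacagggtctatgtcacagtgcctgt
Igtp (chr11:58199306-58199605, strand plus): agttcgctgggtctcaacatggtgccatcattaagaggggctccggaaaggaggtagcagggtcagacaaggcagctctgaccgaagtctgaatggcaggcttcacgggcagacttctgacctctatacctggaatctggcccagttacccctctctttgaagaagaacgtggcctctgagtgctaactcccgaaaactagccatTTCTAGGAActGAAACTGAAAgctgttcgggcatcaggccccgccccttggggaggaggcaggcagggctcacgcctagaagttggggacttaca
Irgm1 (chr11:48871371-48871670, strand minus): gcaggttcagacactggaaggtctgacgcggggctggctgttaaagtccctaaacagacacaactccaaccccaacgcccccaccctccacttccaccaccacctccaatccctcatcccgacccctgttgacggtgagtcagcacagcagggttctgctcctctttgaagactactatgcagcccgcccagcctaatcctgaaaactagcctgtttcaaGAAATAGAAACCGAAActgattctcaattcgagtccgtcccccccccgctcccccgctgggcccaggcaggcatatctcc
Ifi202b (chr1:173982795-173983094, strand minus): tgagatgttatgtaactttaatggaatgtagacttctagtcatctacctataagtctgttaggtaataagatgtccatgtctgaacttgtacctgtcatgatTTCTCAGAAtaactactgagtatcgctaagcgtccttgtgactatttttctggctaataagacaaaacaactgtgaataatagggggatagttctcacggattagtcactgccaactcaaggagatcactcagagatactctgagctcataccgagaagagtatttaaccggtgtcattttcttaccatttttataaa
Mndal (chr1:173880138-173880437, strand minus): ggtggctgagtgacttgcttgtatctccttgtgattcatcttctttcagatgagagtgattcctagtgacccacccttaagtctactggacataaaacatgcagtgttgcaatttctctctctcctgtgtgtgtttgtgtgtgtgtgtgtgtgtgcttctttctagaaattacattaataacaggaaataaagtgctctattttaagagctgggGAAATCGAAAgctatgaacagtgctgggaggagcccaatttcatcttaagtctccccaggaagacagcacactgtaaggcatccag
Ifi203 (chr1:173942443-173942742, strand minus): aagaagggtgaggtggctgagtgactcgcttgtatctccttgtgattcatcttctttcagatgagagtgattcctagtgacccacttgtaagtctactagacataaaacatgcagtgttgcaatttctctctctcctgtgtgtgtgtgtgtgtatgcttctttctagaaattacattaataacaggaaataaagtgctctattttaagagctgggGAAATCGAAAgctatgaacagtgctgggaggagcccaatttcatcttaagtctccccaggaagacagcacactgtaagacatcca
An ISRE match was present in 8 of the 12 promoters and in 7 of the 9 genes, against 3.44% of 32851 promoters of the same length. A GAS match was present in Igtp and Ifi202b, against 8.30% of all promoters, and Igtp held both, against 0.454%. Ifi47 held neither in this window. The Mndal and Ifi203 promoters shown share a run of 139 identical bases that contains the ISRE match, which shows how alike these neighbouring genes are. These are the sequences of C57BL/6J only, and those of C3H/HeJ and A/J were not analysed here.

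The medians of the deposited arrays differed by a factor of up to 1.9, so values were quantile normalized, and every level given is a normalized intensity in the arrays' own units. In female pools Xist was between 609 and 3810, in male pools between 83.1 and 409, so the sex labels held. Differences are on the scale of log2(intensity + 16), which understates changes of dim genes, and come with standard errors from 1 limma model over all probe sets and arrays. A call is an adjusted p under 0.05 (Benjamini-Hochberg over all 15084 probe sets). The genes were chosen by their intensities over strains and stages of these same arrays, and the exact contrast that chose them is not recorded. For that reason their calls between strains and between stages are a description and are set beside the share of all probe sets called.

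The control lungs of the strains differed most in Gbp2b, Mndal and Ifi202b. Gbp2b and Ifi202b were low in C57BL/6, and Mndal was low in A/J. Igtp, Ifi47, Irgm1 and Gbp3 lay close together in all 3 strains. In A/J minus C57BL/6 controls 2 of 13 member probe sets were called higher and 4 lower, where 3.17% of all probe sets were called. In C3H/HeJ minus C57BL/6 controls the counts were 3 higher and 1 lower, where 2.50% were called, and in C3H/HeJ minus A/J controls 4 higher and 0 lower, where 1.01% were called. These 3 comparisons share control arrays. The called probe sets also overlap. The 4 lower in A/J minus C57BL/6 were both Mndal probe sets, shared probe set 4, also annotated to Mndal, and shared probe set 2. The same 4 were the higher ones in C3H/HeJ minus A/J. With only the brightest probe set of each gene, shared ones left out, the counts called were 3 for A/J minus C57BL/6 and 1 for C3H/HeJ minus A/J.

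Gbp2b (1420549_at), formerly Gbp1, is a guanylate-binding protein whose induction by interferon is known to vary between inbred strains. Its control levels were 404 and 506 in C3H/HeJ, 566 and 523 in A/J, and 15.4 and 8.95 in C57BL/6. The 7 C57BL/6 arrays, treated ones included, ran from 8.95 to 44.8 with a median of 20.9, and the other 14 arrays from 344 to 641. No C57BL/6 array reached the other strains; of all probe sets 0.789% had every C57BL/6 array below every other array. On the C57BL/6 arrays Gbp2b ranked between percentiles 12 and 34.1 of all probe sets, which is near the dim end. The log2 difference was 4.32 for A/J minus C57BL/6 (SE 0.24, limma adjusted p = 1.23e-08) and 4.06 for C3H/HeJ minus C57BL/6 (SE 0.24, adjusted p = 1.46e-08). Between C3H/HeJ and A/J it was −0.26 (SE 0.24, 95% interval −0.77 to 0.26).

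Mndal, a p200 gene with a pyrin domain, had 2 probe sets with the same order of strains. By probe set 1 (1426906_at) the controls were at 185 and 215 in C3H/HeJ, 4.25 and 1.70 in A/J, and 276 and 313 in C57BL/6. All 8 A/J arrays lay between 0.717 and 10.3, and the other 13 between 129 and 365. By probe set 2 (1452231_x_at) the 8 A/J arrays lay between 4.36 and 23.6, and the other 13 between 184 and 746. A/J was thus apart from both other strains at every stage by both probe sets; 0.471% of all probe sets had every A/J array below every other array. The differences were −4.03 (SE 0.24, adjusted p = 1.92e-08) and −4.05 (SE 0.32, adjusted p = 5.85e-07) for A/J minus C57BL/6, and 3.51 (SE 0.24) and 3.33 (SE 0.32) for C3H/HeJ minus A/J. C3H/HeJ minus C57BL/6 gave −0.52 (adjusted p = 0.34) and −0.71 (adjusted p = 0.321), which did not pass.

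Ifi202b (1421551_s_at) had control levels of 60.1 and 41.3 in C3H/HeJ, 49.1 and 56.5 in A/J, and 2.05 and 1.93 in C57BL/6. Its 7 C57BL/6 arrays ran from 1.93 to 5.71 at all stages, with a median of 2.20, and the other 14 arrays from 41.3 to 182. Every C57BL/6 array was below the others, as for Gbp2b. The differences were 1.93 for A/J minus C57BL/6 (SE 0.25, adjusted p = 1.86e-04) and 1.88 for C3H/HeJ minus C57BL/6 (SE 0.25, adjusted p = 2.55e-04). The size hung on the offset: for A/J minus C57BL/6 it was 4.16 with an offset of 1 and 0.82 with an offset of 64, and for Mndal probe set 1 the settings ran from −6.29 to −2.42. The probe set passed the dim filter through the 2 strains in which it is high, and on the C57BL/6 arrays it ranked between percentiles 2.35 and 8.44. Gbp2b and both Mndal probe sets likewise passed it through the 2 strains in which they are high. On the A/J arrays Mndal ranked between percentiles 0.378 and 13.2 by probe set 1 and between 6.58 and 22.2 by probe set 2. The adjusted p-values of these members are thus a description. In these data less RNA and weaker binding of a strain's own sequence to the probes cannot be told apart, for Gbp2b, Mndal and Ifi202b alike. The endings _x_at and _s_at mark probe sets whose probes the maker could not make unique to 1 transcript, so readings of Mndal probe set 2, Gbp2 probe set 2 and Ifi202b may include relatives.

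**Figure D1:**
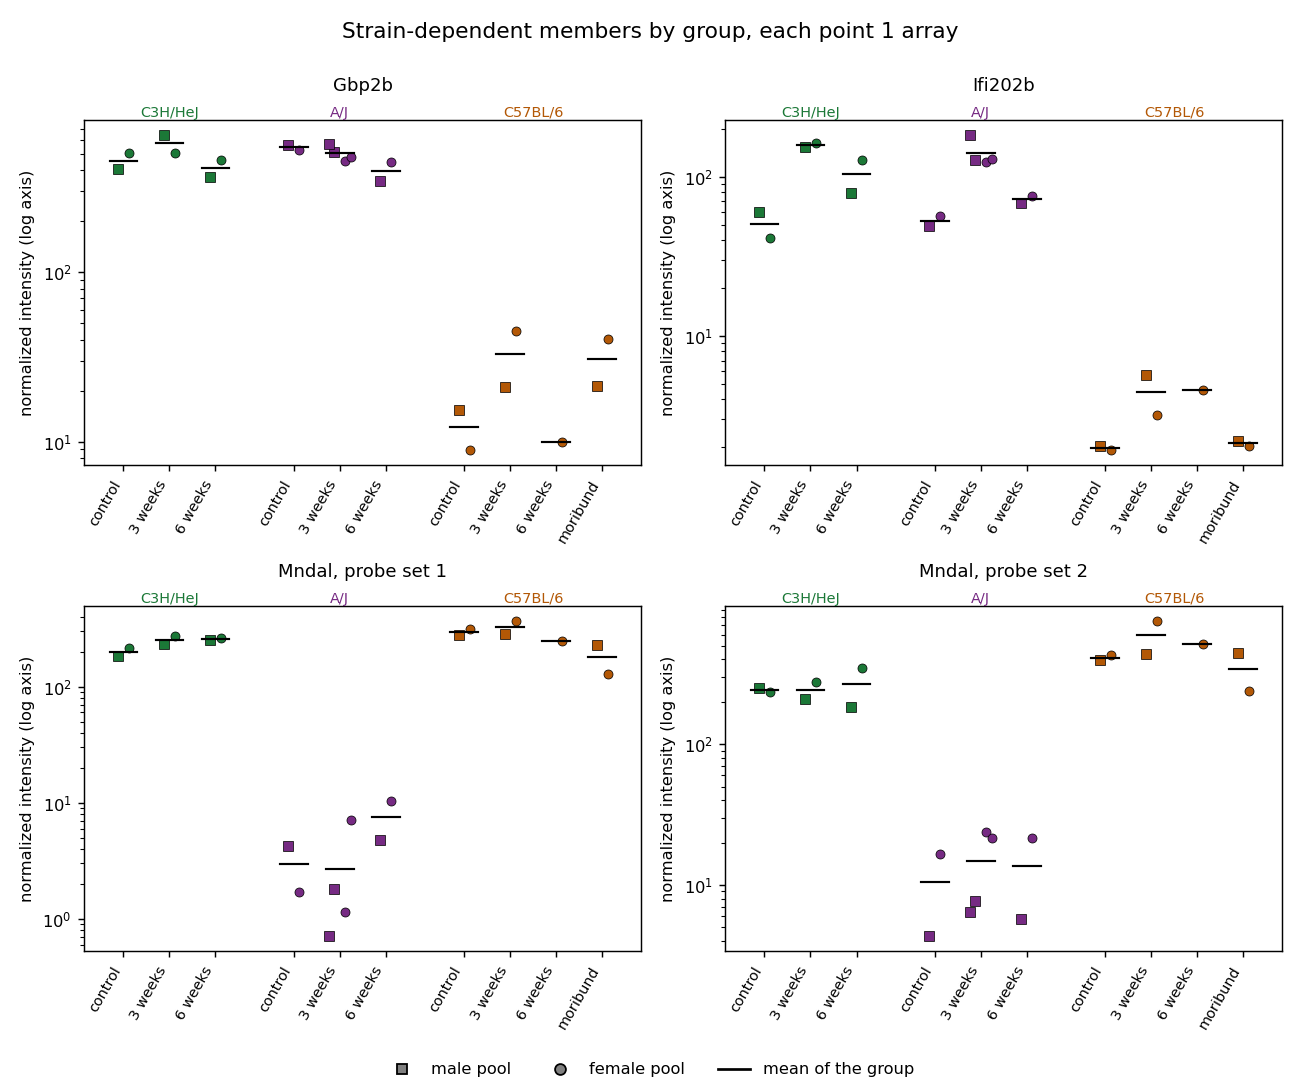
Normalized intensity on a log axis of Gbp2b, Ifi202b and both Mndal probe sets in the 10 groups, with 1 point per array (squares male pools, circles female pools) and a line at the group mean. The 7 C57BL/6 arrays lie below all others for Gbp2b and Ifi202b, and the 8 A/J arrays lie below all others for Mndal.

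Of the 3 probe sets that carry Ifi203 with its pseudogene Ifi203-ps and unnamed loci, each gave another strain order, so they are kept apart. Shared probe set 2 (1448775_at) was at 339 and 355 in C3H/HeJ controls, 120 and 95.1 in A/J controls, and 287 and 369.6 in C57BL/6 controls. Its A/J arrays, 58.8 to 137, all lay below the other 13, 157 to 557, and A/J minus C57BL/6 was −1.48 (SE 0.30, adjusted p = 0.0119) and C3H/HeJ minus A/J 1.56 (SE 0.30, adjusted p = 0.014). The first call was lost without either A/J control (adjusted p = 0.0805 and 0.0881) or the female C57BL/6 control (0.18), and the second without any of its 4 control arrays (0.085 to 0.209). Shared probe set 3 (1451567_a_at) was instead highest in C3H/HeJ, with controls at 116 and 147, against 89.2 and 96.0 in A/J and 44.1 and 80.3 in C57BL/6. C3H/HeJ minus C57BL/6 was 0.95 there (SE 0.21, adjusted p = 0.0255), a call that was lost on the deposited scale (0.576) and without the male C57BL/6 control (0.314) or either C3H/HeJ control (0.135 and 0.222). Shared probe set 1 (1425008_a_at) was too dim to be tested, at 4.16 to 61.3 over all arrays.

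Shared probe set 4 (1452348_s_at) is annotated to Mndal, Ifi204, Ifi205 and Ifi211. It was at 75.7 and 50.5 in C3H/HeJ controls, 19.8 and 10.45 in A/J controls, and 99.3 and 103 in C57BL/6 controls. The strain order was that of Mndal, and all 8 A/J arrays (6.00 to 19.8) lay below the other 13 (50.5 to 175). It too passed the dim filter through the other 2 strains, and on the A/J arrays it ranked between percentiles 8.81 and 19.9. The difference was −1.93 for A/J minus C57BL/6 (SE 0.26, adjusted p = 3.21e-04) and 1.34 for C3H/HeJ minus A/J (SE 0.26, adjusted p = 0.014). The call between C3H/HeJ and A/J was lost without the male C3H/HeJ control (0.276) or the female A/J control (0.202). Which of the 4 genes it reports cannot be told apart.

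Ifi204 (1419603_at), a p200 gene with a pyrin domain that is related to human IFI16, was too dim to be tested. Its control arrays read 0.529 and 1.16 in C3H/HeJ, 37.2 and 31.7 in A/J, and 10.9 and 0.614 in C57BL/6. In A/J no array fell below 15.1, and no C3H/HeJ array passed 10.6. The order of A/J over C3H/HeJ was thus the reverse of that for Mndal, at levels below the dim filter.

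Gbp2, which in the mouse restricts Toxoplasma together with other guanylate-binding proteins, had its highest control readings in C57BL/6 by both of its probe sets. Probe set 1 (1418240_at) read 302 and 279 in C3H/HeJ, 315 and 317 in A/J, and 512 and 503 in C57BL/6. C3H/HeJ minus C57BL/6 was −0.77 (SE 0.19, adjusted p = 0.0395), and A/J minus C57BL/6 was −0.66 (SE 0.19, adjusted p = 0.075). The call for C3H/HeJ was lost in 15 of 33 alternative settings, among them those without either control array of C3H/HeJ (adjusted p = 0.166 and 0.293) or of C57BL/6 (0.211 and 0.207). Probe set 2 (1435906_x_at) gave −0.43 (SE 0.30, adjusted p = 0.588) and −0.63 (SE 0.30, adjusted p = 0.312). C57BL/6 was thus the highest strain for Gbp2 and the lowest for its neighbour Gbp2b, with a far smaller difference for Gbp2.

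Gbp3 (1418392_a_at) read 104 and 142 in C3H/HeJ controls, 124 and 104 in A/J controls, and 124 and 158 in C57BL/6 controls. Igtp (1417141_at), an immunity-related GTPase, read 367 and 369 in C3H/HeJ, 399 and 439 in A/J, and 406 and 379.6 in C57BL/6. Ifi47 (1417292_at), of the same family, read 374 and 479.9 in C3H/HeJ, 532 and 458 in A/J, and 367 and 470.3 in C57BL/6. Irgm1 (1418825_at) varied least, with all 6 control arrays between 199.6 and 215. None of these 4 genes was called between strains, and the largest difference among their control means was 0.26, for Gbp3. For A/J minus C57BL/6 the 95% interval was −0.80 to 0.27 for Gbp3, −0.20 to 0.68 for Ifi47 and −0.40 to 0.41 for Irgm1.

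**Figure D2:**
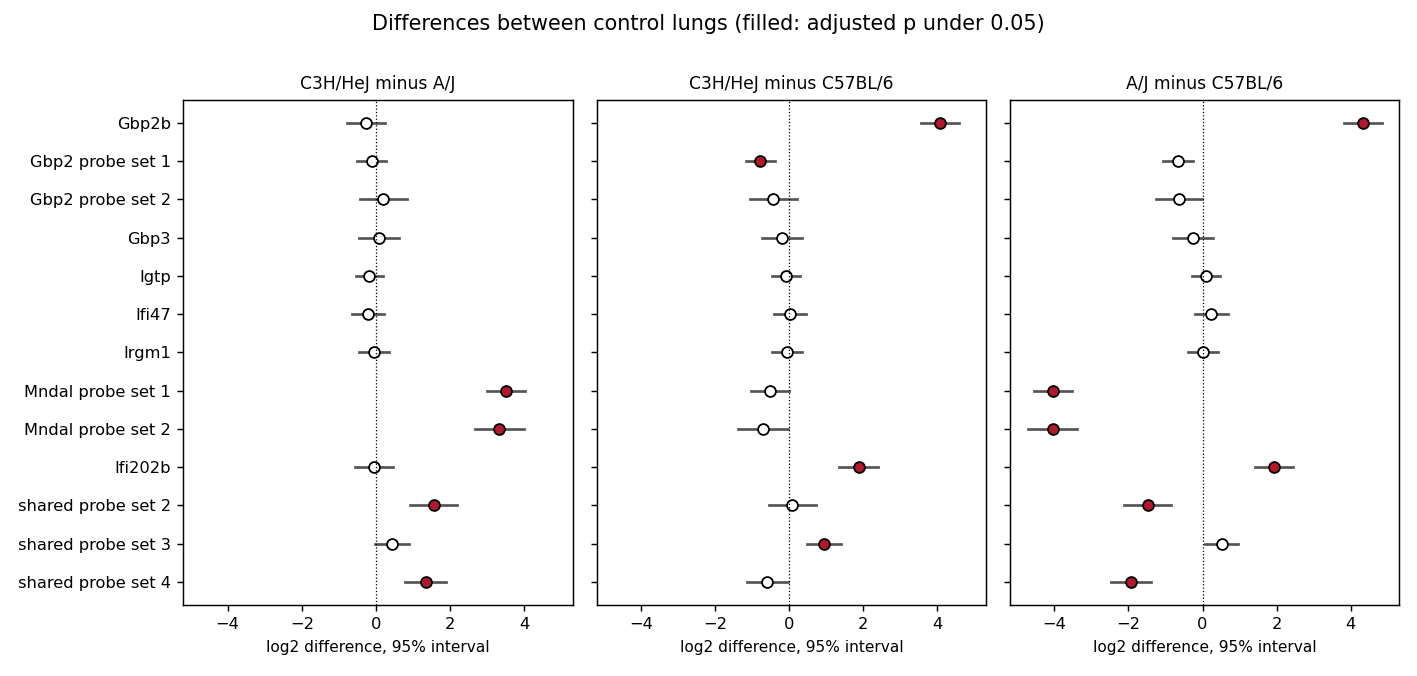
Log2 differences between the control lungs of the strains for the 13 tested member probe sets, with 95% intervals. Filled points have an adjusted p under 0.05. Gbp2b reaches 4.32 and Mndal −4.05 in A/J minus C57BL/6, while Irgm1 stays within 0.062 of 0 in all 3 comparisons.

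At 3 weeks Ifi202b rose in C3H/HeJ and in A/J, and it was the only member probe set called in any comparison of treated with control lungs. The counts were 1 of 13 in C3H/HeJ at 3 weeks, where 1.70% of all probe sets were called, and 1 of 13 in A/J at 3 weeks, where 0.842% were called. In C57BL/6 limma called 0 of 13 at 3 weeks, where 10.7% of all probe sets were called, and 0 of 13 in moribund mice, where 12.8% were called. At an unadjusted p under 0.05 the C57BL/6 counts were 3 and 5. The 13 values at 3 weeks had a median of 0.25 in C3H/HeJ, where 10 were positive, and of −0.032 in A/J, where 6 were. In C57BL/6 the median was 0.25, and all 13 were positive. The medians over all probe sets were −0.016, −0.011 and −0.0054 in the same order. The A/J median is the value of Mndal probe set 1, which read at most 10.3 there. Both Mndal probe sets and the shared one annotated to Mndal lie too low in A/J for a change to be read. The same holds for Ifi202b in C57BL/6. Over the tested probe sets with 1 gene symbol, Mndal and Ifi202b included, the medians were 0.24, 0.14 and 0.22. The sign of the A/J median is thus not read as a strain difference. A missing call in so few probe sets does not show that they did not change. At 6 weeks 0 of 13 were called in C3H/HeJ (0.0663% of all; 1 at an unadjusted p under 0.05) and in A/J (0.0994% of all; 0 unadjusted).

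In C3H/HeJ, Ifi202b was at 155 and 163 at 3 weeks, against 60.1 and 41.3 in controls. In A/J it was at 128, 182, 125 and 129 at 3 weeks, against 49.1 and 56.5 in controls. All treated arrays lay above the controls of their strain. Such separation is common with few arrays: in C57BL/6 at 3 weeks 58.6% of all probe sets showed it, in either direction. The share for these 2 strains is not given here. The rise was 1.40 in C3H/HeJ (SE 0.25, adjusted p = 0.0065) and 1.18 in A/J (SE 0.21, adjusted p = 0.0114). In C57BL/6 the 3 week arrays read 5.71 and 3.20, against 2.05 and 1.93 in controls (0.18, SE 0.25, adjusted p = 0.72), all near the bottom of the array. At 6 weeks the level was 78.9 and 128 in C3H/HeJ and 68.5 and 75.7 in A/J, still above every control array, but the changes did not pass (0.82, adjusted p = 0.666, and 0.36, adjusted p = 0.999).

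The difference in this response between C3H/HeJ and A/J was 0.23 (SE 0.32, 95% interval −0.46 to 0.91). Against C57BL/6 no such comparison can be read for Ifi202b, because its C57BL/6 readings lie so far under the offset of 16 that a change there is held near 0. Over all members, 0 of 13 were called in any of the 3 response comparisons, where 0.152% of all probe sets were called for C3H/HeJ minus C57BL/6, 1.07% for A/J minus C57BL/6 and 0% for C3H/HeJ minus A/J. At an unadjusted p under 0.05 there were 1, 4 and 0 in the same order. The 1 was Ifi202b, which was also among the 4, so both counts include a value that cannot be read. Other members are limited in the same way. Both Mndal probe sets and shared probe set 4 read at most 23.6 in A/J, which limits their comparisons with A/J. Gbp2b read 8.95 to 44.8 in C57BL/6, which limits its comparisons with C57BL/6. Neither the calls nor the unadjusted counts can thus be taken as a full reading of the 13. Simulated 2-fold response differences between C3H/HeJ and C57BL/6 were recovered in 47% of cases, so these comparisons could miss changes of that size.

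Both calls for Ifi202b rested on few arrays and on the scaling. With intensities as deposited the adjusted p was 0.162 in C3H/HeJ and 0.284 in A/J, with only that strain's arrays it was 0.0999 in C3H/HeJ, and with an offset of 1 it was 0.073 in A/J. In A/J the call was lost without the male control (adjusted p = 0.277) or the female control (0.0889). In C3H/HeJ it was lost without the female control (0.112) or the female 3 week array (0.052). The summed level of 16 macrophage markers moved with these groups: it was 9973 to 11550 at 3 weeks in C3H/HeJ, against 6895 to 7261 in controls, and 8124 to 9387 at 3 weeks in A/J, against 6317 to 6591 in controls. Of its 15 tested genes 10 rose in C3H/HeJ, 1 in A/J and 11 in C57BL/6, and none of the 16 was at 0 on any array. The sum was also higher in C57BL/6, at 15380 and 16110 at 3 weeks, against 5734 and 5951 in controls. The C57BL/6 readings of Ifi202b, at most 5.71, lie too low for a change to be read beside it. The summed level of 6 neutrophil markers moved by more: it was 4066 to 4290 at 3 weeks in C3H/HeJ, against 1252 to 2262 in controls, and 5295 to 9563 at 3 weeks in A/J, against 1168 to 1314 in controls, with 3 and 4 of 5 tested genes called higher. For 6 B cell markers it was 589 to 723 at 3 weeks in C3H/HeJ, against 1050 in both controls, and 708 to 884 in A/J, against 1253 to 1316, with 0 of 5 called in either strain (3 and 4 at an unadjusted p under 0.05). For 7 heart muscle markers it was 1583 to 2315 in C3H/HeJ, against 3653 to 4268, and 2249 to 2693 in A/J, against 4452 to 5281. For 11 T cell markers it was 387 to 394 in C3H/HeJ, against 662 to 716, with 1 of 7 called lower. In A/J the T cell sum overlapped with controls (509 to 805, against 657 to 883). The part of these cells in the Ifi202b change was not tested, and in whole lung more cells of a type and more RNA per cell cannot be told apart.

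Gbp2b in C57BL/6 was at 20.9 and 44.8 at 3 weeks and at 21.4 and 40.3 in moribund mice, against 15.4 and 8.95 in controls. The groups did not overlap, as in 58.6% of all probe sets at 3 weeks and 53.9% in moribund mice. The changes were 0.76 (SE 0.24, adjusted p = 0.057) and 0.71 (SE 0.24, adjusted p = 0.0657), just short of a call. The female 6 week array read 10.0, between the controls. With an offset of 1 the change at 3 weeks was 1.31 (adjusted p = 0.0172), and the call was also made without the male 3 week array (1.10, adjusted p = 0.0397). Even the highest treated C57BL/6 array, at 44.8, stayed far under the lowest array of the other strains. In C3H/HeJ and A/J the 3 week changes were 0.32 (SE 0.24) and −0.12 (SE 0.21), neither called.

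Mndal showed no called change. By probe set 1, C3H/HeJ was at 232 and 270.3 at 3 weeks, against 185 and 215 in controls (0.31, SE 0.24), and C57BL/6 at 286 and 365 at 3 weeks, against 276 and 313 in controls (0.13, SE 0.24). Moribund C57BL/6 mice were at 229 in the male pool and 129 in the female pool (−0.72, SE 0.24, adjusted p = 0.0606). By probe set 2 the moribund change was −0.32 (SE 0.32), and it turned to 0.39 without the female pool. In A/J no array passed 23.6 by either probe set at any stage.

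None of the 3 immunity-related GTPases was called after bleomycin, and all were bright in every group. Igtp in A/J at 3 weeks was at 583, 389.6, 495 and 612, against 399 and 439 in controls (0.28, SE 0.15, adjusted p = 0.566). Its 3 week changes in C3H/HeJ and C57BL/6 were both 0.25 (SE 0.18; adjusted p = 0.542 and 0.415). Moribund C57BL/6 mice had 293 and 269, against 406 and 379.6 in controls (−0.46, SE 0.18, adjusted p = 0.0989), the lowest Igtp levels of all 21 arrays.

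Ifi47 in C57BL/6 at 3 weeks was at 558 and 582, against 367 and 470.3 in controls (0.44, SE 0.21, adjusted p = 0.202). In C3H/HeJ and A/J its 3 week changes were 0.010 (SE 0.21) and −0.061 (SE 0.18). Irgm1 was at 333 and 216 at 3 weeks in C3H/HeJ, against 206 and 199.6 in controls (0.38, SE 0.19, adjusted p = 0.366), and at 282 and 284 in C57BL/6, against 211 and 213 in controls (0.39, SE 0.19, adjusted p = 0.221). In A/J it changed by 0.19 (SE 0.17, adjusted p = 0.751). The 95% intervals for Irgm1 reached 0.80 in C57BL/6 and 0.54 in A/J, so rises up to those sizes remain possible.

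**Figure D3:**
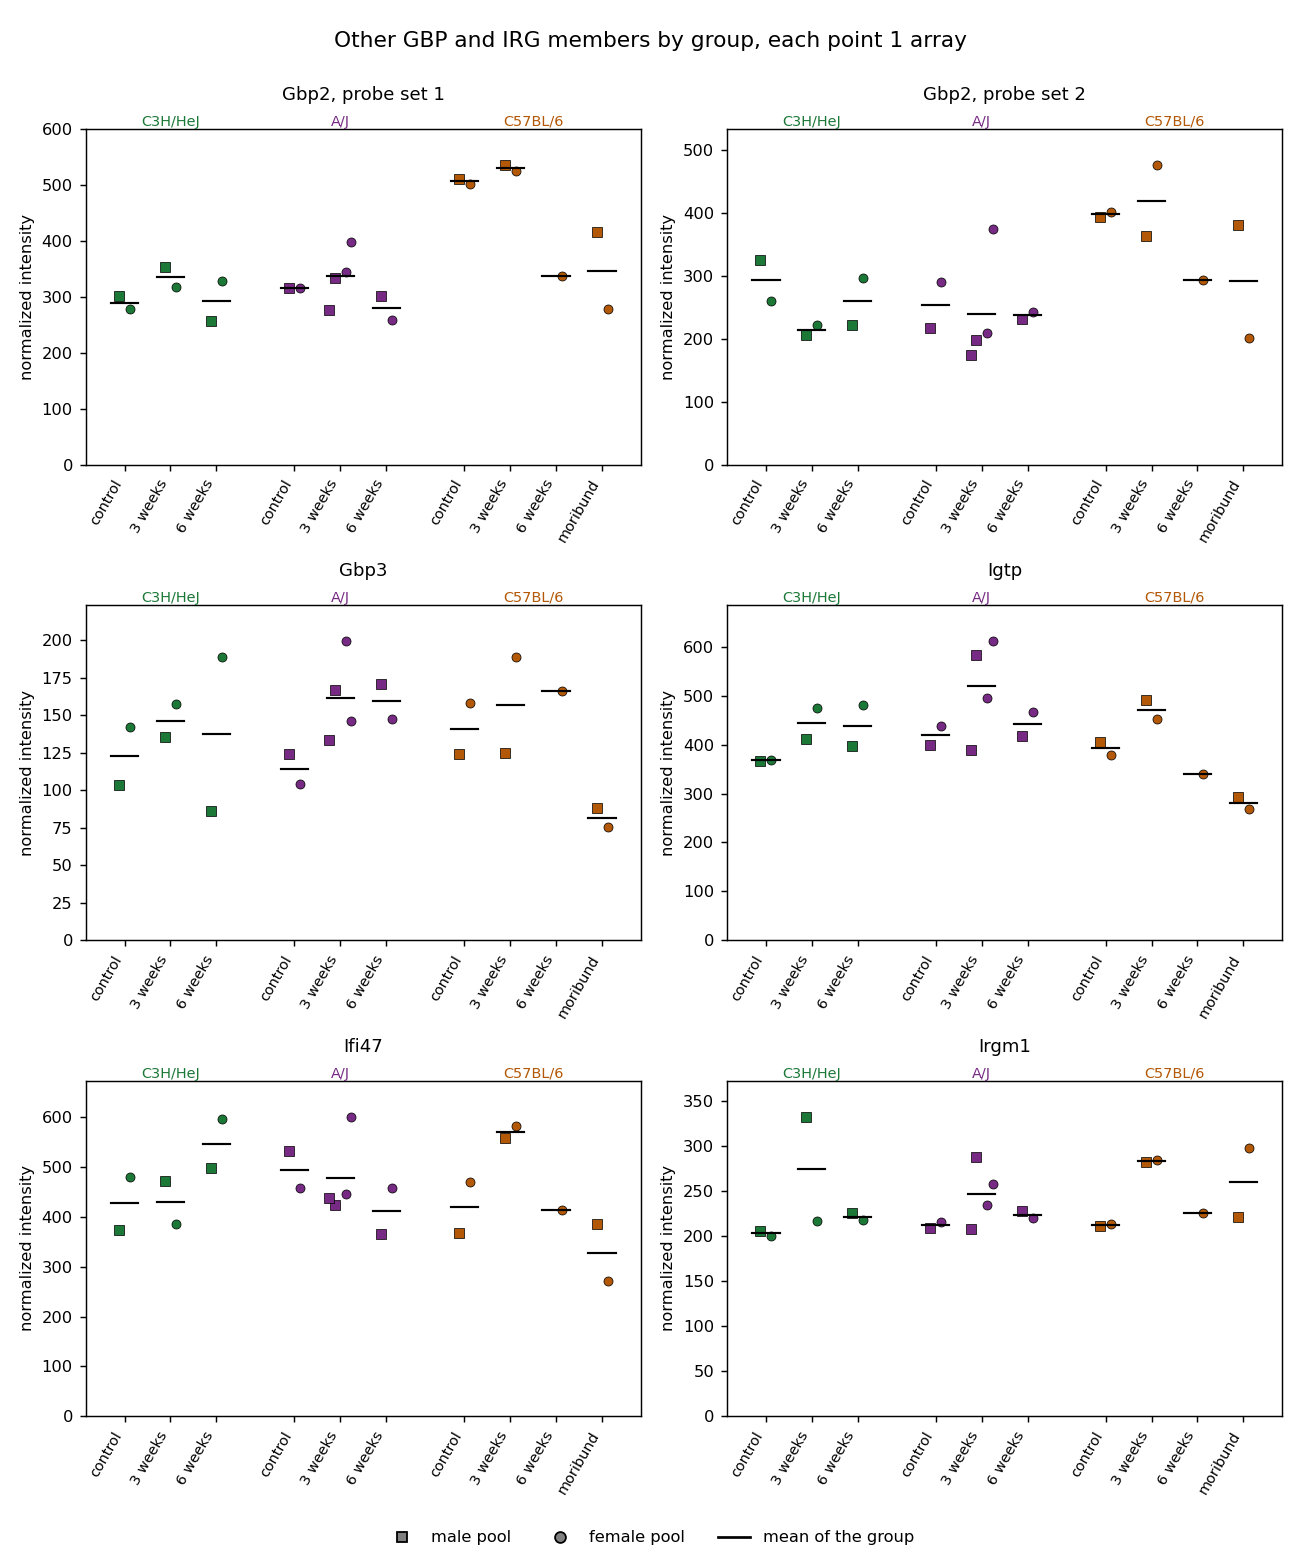
Normalized intensity (linear axes from 0) of both Gbp2 probe sets, Gbp3, Igtp, Ifi47 and Irgm1 in the 10 groups, with 1 point per array (squares male pools, circles female pools) and a line at the group mean. Igtp is lowest in the 2 moribund C57BL/6 pools (293 and 269), and Gbp2 probe set 1 is at 503 to 536 in C57BL/6 controls and 3 week mice.

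Gbp3 in moribund C57BL/6 mice was at 88.1 and 75.4, against 124 and 158 in controls (−0.68, SE 0.25, adjusted p = 0.0933). Its 3 week changes were 0.24 in C3H/HeJ, 0.44 in A/J and 0.12 in C57BL/6, none called. Gbp2 probe set 1 in moribund mice was at 416 in the male and 279 in the female pool, against 512 and 503 in controls (−0.55, SE 0.19, adjusted p = 0.0669). At 3 weeks its changes were between 0.062 and 0.20 in the 3 strains. Over the 13 probe sets the median change in moribund mice was −0.42, against −0.0034 over all probe sets, and 9 values were negative. The moribund counts turned on 1 array: without the male moribund pool 6 of 13 were called, and without the female pool 0. Cell markers moved in the same mice. The sum of 16 macrophage markers was 16130 and 17850 in moribund mice, against 5734 and 5951 in controls, with 12 of 15 tested called higher. The sum of 7 endothelial markers was 3151 and 4128, against 6449 and 6545 in controls, with 6 of 7 called lower. That of 6 B cell markers was 377 and 665, against 959 and 1061, with 3 of 5 called lower, and that of 9 NK and cytotoxic markers was 481 and 705, against 994 and 1060, with only Gzma (−2.07) called lower. That of 7 heart muscle markers was 1106 and 1506, against 4295 and 4304. That of 6 neutrophil markers was 2798 and 3902, against 1136 and 1521, with 4 of 5 called higher. The part of these cells in the members' readings was not tested.

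Of the shared probe sets none was called after bleomycin in any strain. Shared probe set 4 in C57BL/6 at 3 weeks was at 175 and 156, against 99.3 and 103 in controls (0.63, SE 0.26, adjusted p = 0.141). Shared probe set 2 in C3H/HeJ at 6 weeks was at 459 and 557, against 339 and 355 in controls (0.52, SE 0.30). Ifi204, which was not tested, read 10.6 and 8.35 at 3 weeks in C3H/HeJ, against 0.529 and 1.16 in controls, and 30.6 and 44.8 at 3 weeks in C57BL/6, against 10.9 and 0.614 in controls. These readings lie where the array does not separate signal from background well.

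The C57BL/6 female pool at 6 weeks has no replicate and no test. Gbp2 probe set 1 was at 337 there, against 503 in the female control (−0.56), while Mndal probe set 2 was at 513, against 427 (0.26), and Ifi202b at 4.57, against 1.93 (0.20). The other tested member probe sets differed from the female control by −0.43 to 0.33.

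**Figure D4:**
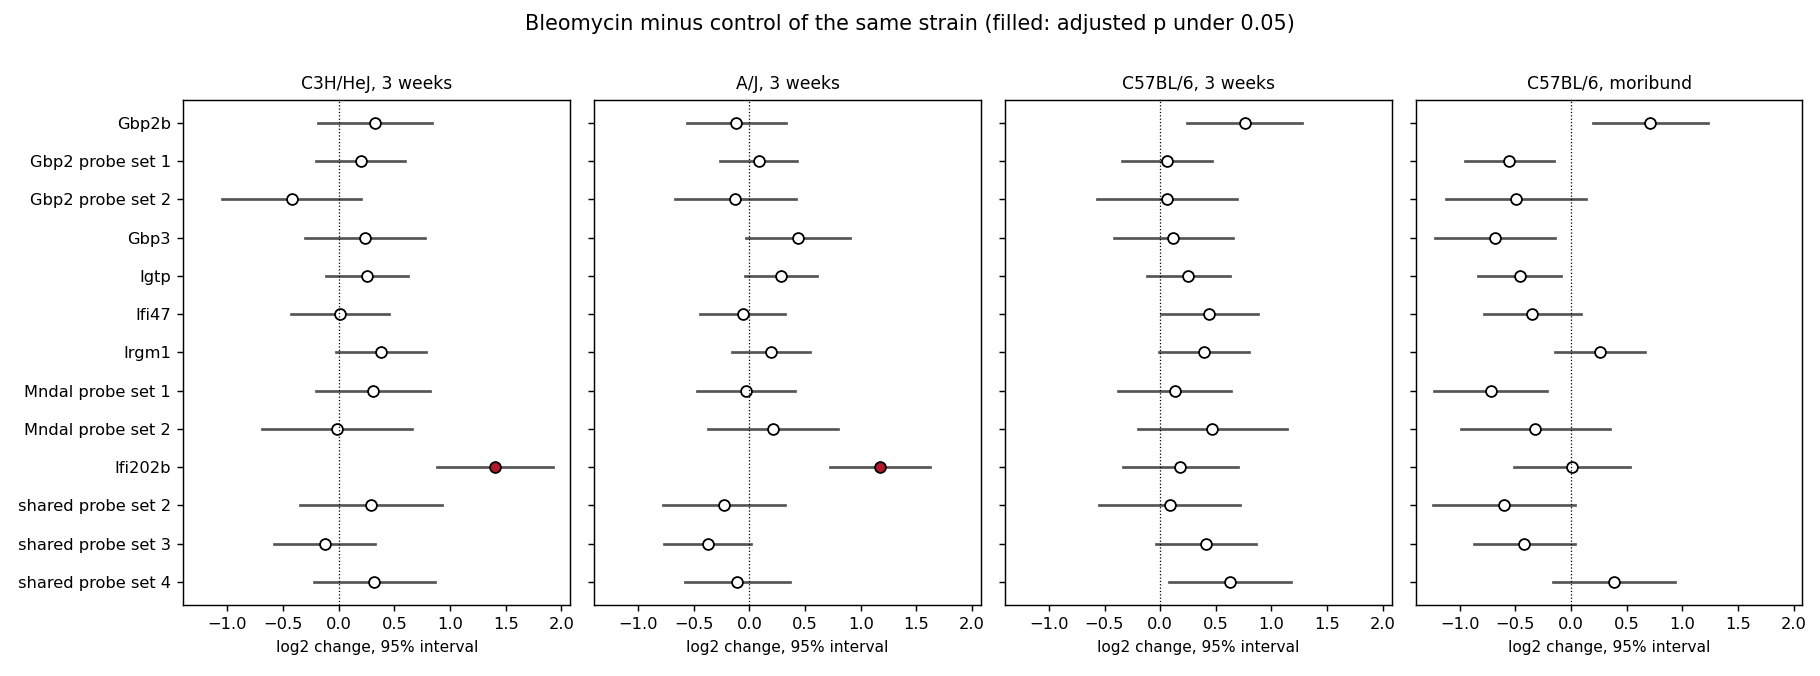
Log2 changes from control of the same strain for the 13 tested member probe sets at 3 weeks and in moribund mice, with 95% intervals. Filled points have an adjusted p under 0.05: Ifi202b in C3H/HeJ (1.40) and in A/J (1.18).

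Strain and treatment were then set side by side. For 10 of the 15 member probe sets the span between the control means of the strains was larger than the largest change from control in any group, and for 5 (Gbp3, Igtp, Ifi47, Irgm1 and shared probe set 1) the change was larger. The groups include the single C57BL/6 array at 6 weeks, which gave the largest change for Gbp2 probe set 1 (−0.57) and shared probe set 3 (0.43). Among the 13 tested the share was 69.2%, against 24.5% of all tested probe sets. The median span between control means was 0.95 over these 13 and 0.29 over all tested probe sets. Gbp2 and Mndal count more than once among the 13, and shared probe set 4 is also annotated to Mndal. By gene, the span was larger for Gbp2b, Gbp2, Mndal and Ifi202b, and the change for Gbp3, Igtp, Ifi47 and Irgm1. Gbp2b, Mndal, Ifi202b and shared probe set 4 passed the dim filter through the strains in which they are high, which in part set their large spans in advance. The members were chosen knowing such differences, so the share is a description of this selection.

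**Figure D5:**
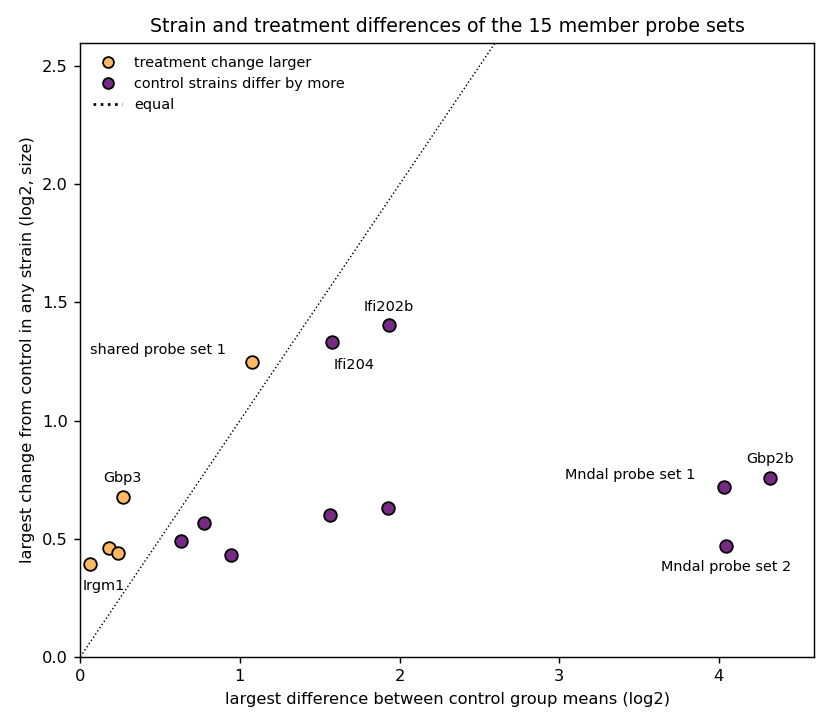
Largest difference between control group means of the strains (horizontal axis, log2) against the largest change from control in any treated group (vertical axis, size in log2) for the 15 member probe sets, with a dotted line where both are equal. Gbp2b and Mndal lie near 4 on the horizontal axis and under 0.8 on the vertical one, and Ifi202b is high on both.

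Likeness between members was measured over the group means. Across the 10 group means Gbp2b and Ifi202b, on different chromosomes, correlated at Pearson r = 0.939, and the Mndal probe sets at 0.980 with each other and at 0.946 and 0.980 with shared probe set 4. Igtp and Ifi47 correlated at 0.761, and Irgm1 with Igtp at 0.167. The probe sets most like Gbp2b were Wdfy1 (0.983), Tmem87a (0.983) and Clba1 (0.982), those most like Mndal were Eid1 (0.995), Eif4a1 (0.979) and Ptpa (0.977), and those most like Ifi202b were Mfap4 (0.957), Wdfy1 (0.954) and Timp2 (0.950). The guanylate-binding protein gene Gbp7 was among the 3 most like Igtp (0.933, behind Cmc2 at 0.971), and the complement gene Cfb among the 3 most like Irgm1 (0.943). These correlations rest on 10 group means that share arrays and strain, and are given with no test.

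Of the relatives outside the 10 genes, 9 probe sets were tested. Ifi209, a p200 gene, was lower in A/J and C3H/HeJ controls than in C57BL/6 by its first probe set (−1.29, SE 0.22, adjusted p = 0.0033, and −1.61, SE 0.22, adjusted p = 4.29e-04) and rose in C57BL/6 at 3 weeks (0.88, SE 0.22, adjusted p = 0.016). Its second probe set gave 0.31 for A/J minus C57BL/6, so the 2 probe sets disagree. Iigp1, an immunity-related GTPase, rose in C57BL/6 at 3 weeks by 1 probe set (1.0, SE 0.28, adjusted p = 0.0296) and did not pass by the other (0.44, SE 0.23, adjusted p = 0.266). Gbp7 fell in moribund mice by 1 probe set (−0.61, SE 0.16, adjusted p = 0.0207), and the other gave −0.10 (SE 0.25). Gbp6, Gbp8 and Irgm2 were not called in any comparison, and Aim2, Mx1 and Mx2 were too dim to be tested.

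The wider interferon lists give the setting at 3 weeks, counted per gene. Of 20 tested type I interferon-stimulated genes 5 rose in C3H/HeJ, where 2.07% of all genes were called, 0 were called in A/J, where 0.947% were, and 12 rose and 1 (Isg20) fell in C57BL/6, where 11.8% were. The A/J count at an unadjusted p under 0.05 was 9 of 20. In C57BL/6 Ifit1 rose by 1.43, Oas1a by 1.26 and Bst2 by 1.27, and the antiviral genes Oas3 (2.45) and Ifit1 (1.40) led in C3H/HeJ. Of 16 interferon gamma targets 2 were called higher in C3H/HeJ, 0 in A/J and 2 in C57BL/6, the last near the share of all genes there. The chemokine Cxcl10 rose by 2.28 in C3H/HeJ and by 2.90 in C57BL/6, with Tap1 (0.98) in the first and Icam1 (0.48) in the second. Of 18 signalling genes 1 was called in C3H/HeJ, 0 in A/J, and 2 higher and 1 lower in C57BL/6. The transcription factor Irf7 rose by 1.55 in C3H/HeJ and by 1.97 in C57BL/6, where Socs3 also rose (1.41) and Jak1 fell by 0.54. The A/J response was below that of C57BL/6 for Cxcl10 (−2.53, SE 0.42, adjusted p = 0.00892) and Irf7 (−1.41, SE 0.29, adjusted p = 0.0271). The 12 called type I genes of C57BL/6 stand beside 0 of 13 member probe sets called there; the difference between the lists was not tested.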

How the data were processed

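The files hold 1 linear intensity per probe set and array, deposited by the authors; per the labels, total lung RNA came from a Trizol extraction and arrays were run by standard Affymetrix procedures. The sources used here do not give the software or scaling behind the intensities. Of 22690 probe sets, 64 controls were left out. Deposited intensities were quantile normalized, taken as log2(intensity + 16), and the dimmest 33.3% by their mean were not tested. One limma model (limma 3.58.1, R 4.3.3, trended eBayes) held the 10 groups and a sex term over all 21 arrays, with 10 residual degrees of freedom. P-values were adjusted by Benjamini-Hochberg over all 15084 probe sets. Groups came from the labels, and replicates are separate pools, so p-values measure the spread between pools, and the number of arrays limits the precision. Gene names came from the platform annotation: 20380 probe sets had 1 symbol, 691 several and 1555 none. All members are named; other genes were named by likeness over group means or from lists, per gene by the brightest probe set. Members and lists were chosen with earlier results of these data known. The model was tested on simulated data: 2-fold changes were recovered in 85% of cases for C57BL/6 at 3 weeks and 82% for C3H/HeJ minus C57BL/6 controls. False calls numbered 15 and 8 in the same order. The changes were placed only in probe sets brighter than the dimmer tested members, such as Ifi202b, so these shares do not cover them. Alternatives covered scaling, offset, filter, model terms and each array left out. The labels give no batch.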

Additional observations from a re-analysis of the deposited data

Results flagged for a closer look

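In A/J at 3 weeks, 1 of the 4 pools stood apart from the others for 2 of the 15 member probe sets tested for this. For Ifi47 the female pool at 125 mg/kg read 601, against 424, 437 and 445 in the others, a gap of 0.866 of the range on the scale of log2(intensity + 16). For Ifi202b the male pool at 100 mg/kg read 182, against 125, 128 and 129, a gap of 0.902 of the range on the same scale. Both gaps pass Dixon's 95% limit for 4 samples, which chance passes in about 1 in 20 groups.

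In 4 cases A/J and C3H/HeJ arrays moved in opposite directions from their controls, with all arrays of a strain on 1 side. The difference was not tested for any of them. Groups of so few arrays often lie apart: in C57BL/6 at 3 weeks 58.6% of all probe sets did not overlap with controls. The share for the comparisons below is not given here, so the cases are not read as responses. Shared probe set 1 was also below the dim filter. For shared probe set 1 at 3 weeks the change was −0.361 in A/J and 0.708 in C3H/HeJ, an A/J minus C3H/HeJ difference of −1.07, and at 6 weeks −1.25 and 0.66, a difference of −1.91. For Ifi47 at 6 weeks it was −0.262 in A/J and 0.351 in C3H/HeJ, a difference of −0.61. For shared probe set 3 at 6 weeks it was −0.414 in A/J and 0.264 in C3H/HeJ, a difference of −0.68.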

How the results depend on the processing

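The strain differences of Gbp2b, both Mndal probe sets and Ifi202b kept their direction and call under every setting in which they were tested (31 to 33 settings). That of shared probe set 4 for A/J minus C57BL/6 did too, and the sizes of all moved with the setting. A filter on the dimmest 50% dropped Mndal probe set 1, Ifi202b and shared probe set 4, so their calls were not tried there. The setting with the brightest probe set of each gene dropped Mndal probe set 1 and shared probe set 4. Because the members were chosen from these arrays, the kept calls are a description and no separate support. For A/J minus C57BL/6, Gbp2b ran from 3.00 to 5.42, Mndal probe set 1 from −6.29 to −2.42, Mndal probe set 2 from −5.40 to −2.67, Ifi202b from 0.82 to 4.16 and shared probe set 4 from −2.73 to −1.07, and for C3H/HeJ minus C57BL/6 Ifi202b ran from 0.79 to 4.09; the ends for Ifi202b came with offsets of 64 and 1. Counts of called members moved in these settings. For A/J minus C57BL/6 controls (6 called) it was 3 with a filter on the dimmest 50% and with the brightest probe set of each gene. For C3H/HeJ minus C57BL/6 (4) it was 2 with deposited intensities, with that filter, and with only the arrays of those strains. For C3H/HeJ minus A/J (4) it was 2 with that filter and 1 with the brightest probe set. At 3 weeks the A/J count (1) was 0 with deposited intensities, with an offset of 1 and with that filter, and the C3H/HeJ count (1) was 0 with deposited intensities, with that filter and with only that strain's arrays. The C57BL/6 count at 3 weeks (0) was 1 with an offset of 1 or 64, no filter, that filter, the brightest probe set, or array weights, and the moribund count (0) was 1 with each array scaled to 1 median or an offset of 1 or 64. Leaving out 1 array at a time gave 5 to 7, 2 to 4 and 2 to 4 for the strain comparisons in the order above, 0 to 1 at 3 weeks in each strain, 0 to 6 in moribund mice, and 0 to 0 elsewhere. Besides the moribund pools, the moribund count became 1 without either C57BL/6 pool at 3 weeks or the male C3H/HeJ pool at 6 weeks. The C57BL/6 count at 3 weeks became 1 without its male pool, either moribund pool or either C3H/HeJ pool at 3 weeks. The C3H/HeJ minus C57BL/6 count was 2 without the male C57BL/6 or either C3H/HeJ control, and the C3H/HeJ minus A/J count was 2 without the female A/J or the male C3H/HeJ control. Without the female moribund pool, the moribund change turned to 0.062 for Gbp2 probe set 2 and 0.39 for Mndal probe set 2, and without the male pool it was −1.05 and −1.02. Counts over all probe sets ranged from 466 to 2792 for C57BL/6 at 3 weeks (main 1614), 712 to 2179 in moribund mice (1925), 38 to 216 for A/J (127) and 54 to 341 for C3H/HeJ (257) at 3 weeks, 128 to 1204 (478), 120 to 1135 (377) and 68 to 299 (152) for the strain comparisons in the order above, 0 to 23 (15) and 1 to 39 (10) at 6 weeks in A/J and C3H/HeJ, and 18 to 604 (162) and 0 to 283 (23) for the A/J and C3H/HeJ responses against C57BL/6. Deposited intensities shifted the median of all probe sets by −0.341 to 0.0653. The causes were not tested. No paired analysis was possible because replicate numbers were given in accession order and pair no pools. Arrays were matched by sex through the sex term of the model, and leaving it out moved none of the 12 counts of called members. Intensities near the bottom of the array limit Ifi204, shared probe set 1, and the low strain of Gbp2b, Mndal and Ifi202b.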
